A study of Rattus norvegicus with 2 samples.

Results

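The matrix metalloproteinases described here are 8 genes, Mmp2, Mmp3, Mmp9, Mmp10, Mmp12, Mmp13, Mmp14 and Mmp19, chosen by symbol in the gene lists of a single-cell RNA sequencing study of rat cartilage. All 8 were among the 18147 genes listed for both of its libraries. The questions were which cells carried the RNA of each enzyme and how its level differed between the libraries within those cells. The CIA library came from Lewis rats treated with type II collagen together with Complete Freund's Adjuvant and collected on day 14, a model of inflammatory arthritis called collagen-induced arthritis (CIA). The control library came from Lewis rats without treatment, called sham in the design text. The labels give neither the number of animals nor the joint, and rats given adjuvant alone were not analysed here. With 1 library per group nothing could be tested between the groups: every difference is between these libraries, and every 95% interval covers counting error only.

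Matrix metalloproteinases are zinc-dependent enzymes that cut collagens, proteoglycans and other proteins outside the cell. Most are made as latent proenzymes, are switched on by other proteases and are held in check by tissue inhibitors (the Timp proteins). In arthritic joints they are best known from cells of the synovial membrane, from chondrocytes, from macrophages and from osteoclasts, where collagenases cut fibrillar collagen, stromelysins cut proteoglycan and gelatinases cut denatured collagen.

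Of the 8 genes, 4 lie together on chromosome 8. Among the protein-coding genes of the RefSeq table (GRCr8 assembly) the order there is Mmp13, Mmp12, Mmp1b, Mmp3, Mmp1, Mmp10 and Mmp8. Promoter sequences in RefSeq's table matched these 4 members and no other. They are shown because Mmp12, with macrophage-gated cells as its source, lies among Mmp3, Mmp10 and Mmp13, whose levels were highest in lining-gated or fibroblast-gated cells, while the proximal promoters of all 4 share both a motif of the AP-1 transcription factor (Fos and Jun proteins) and a TATA box. Each line gives the 100 bases before the gene's start, on the plus strand of GRCr8, with matches to TGANTCA (a form that is the same on both strands) and to TATAAA (searched on the strand of the gene) in capitals.
Mmp13, chr8:12782729-12782828: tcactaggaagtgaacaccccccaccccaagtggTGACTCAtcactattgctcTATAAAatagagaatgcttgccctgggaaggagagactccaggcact
Mmp12, chr8:12866552-12866651: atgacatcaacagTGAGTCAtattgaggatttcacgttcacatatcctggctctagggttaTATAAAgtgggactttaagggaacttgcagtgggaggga
Mmp3, chr8:12925181-12925280: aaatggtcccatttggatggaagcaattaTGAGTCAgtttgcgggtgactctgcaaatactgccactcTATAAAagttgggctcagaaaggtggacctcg
Mmp10, chr8:12974607-12974706: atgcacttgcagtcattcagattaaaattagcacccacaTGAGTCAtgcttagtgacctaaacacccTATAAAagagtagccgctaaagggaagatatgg
The AP-1 match began 66 bases before the start in Mmp13, 87 in Mmp12, 71 in Mmp3 and 61 in Mmp10. The same 100-base window held TGANTCA in 2.47% and TATAAA in 3.86% of the 33469 promoters in the table. These matches describe the letters only.

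The CIA library held 8409 cells and the control library 5349 after filtering, at a median of 10541 and 11873 unique molecular identifiers (UMIs, each marking 1 captured RNA molecule) per cell before it. Cells were sorted into classes by marker genes, with no metalloproteinase among the markers. In the CIA and control libraries these gates held 689 and 249 lining cells (markers of the synovial lining or superficial cartilage zone, such as the lubricant gene Prg4), 3282 and 2291 fibroblast cells, 3155 and 1163 macrophage or monocyte cells, 74 and 20 osteoclast cells, 25 and 328 chondrocyte cells, and 526 and 642 endothelial cells. The 10 genes of highest fold in the lining, macrophage and chondrocyte gates held 4, 4 and 6 of their own markers, against 2 in the osteoclast gate, 1 in the endothelial gate and 0 in the fibroblast gate, so the names are those of the gates. The libraries were labelled cartilage, but chondrocyte-gated cells made up 0.297% of CIA and 6.13% of control cells. The libraries shared 52 cell barcodes.

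The 8 enzymes had 4 kinds of source. Levels are in CPM, the UMIs of a gene per 1000000 UMIs summed over a gate, and the source is the gate with the highest mean of the CIA and control levels, among 8 gates with at least 20 cells in each library. Fibroblast-gated cells were the source of Mmp2, Mmp13 and Mmp14, lining-gated cells of Mmp3 and Mmp10, osteoclast-gated cells of Mmp9 and Mmp19, and macrophage-gated cells of Mmp12. The split was widest for Mmp9, whose level in osteoclast-gated cells was 463-fold (CIA) and 523-fold (control) that in endothelial-gated cells, which stand here for cells outside the sources. For Mmp3 in lining-gated cells these folds were 42.1 (CIA) and 32.7 (control), and for Mmp12 in macrophage-gated cells 36.7 (CIA) and 57.6 (control). They were small for Mmp10 in lining-gated cells, 4.27 in the CIA and 4.06 in the control library. The lining gate led for Mmp3 only through the CIA library: control cells had 10004 CPM in the lining and 10398 CPM in the fibroblast gate. With stricter marker limits, and with clusters in place of gates, Mmp3 and Mmp10 were highest in fibroblasts. By share of UMIs, fibroblast-gated cells held the most of 6 of the 8 genes in both libraries, from 55.6% (CIA) and 64.5% (control) of Mmp10 to 82.1% (CIA) and 88.9% (control) of Mmp2. Levels of different genes are compared only loosely, since capture can differ between genes and the library chemistry was not settled.

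**Figure D1:**
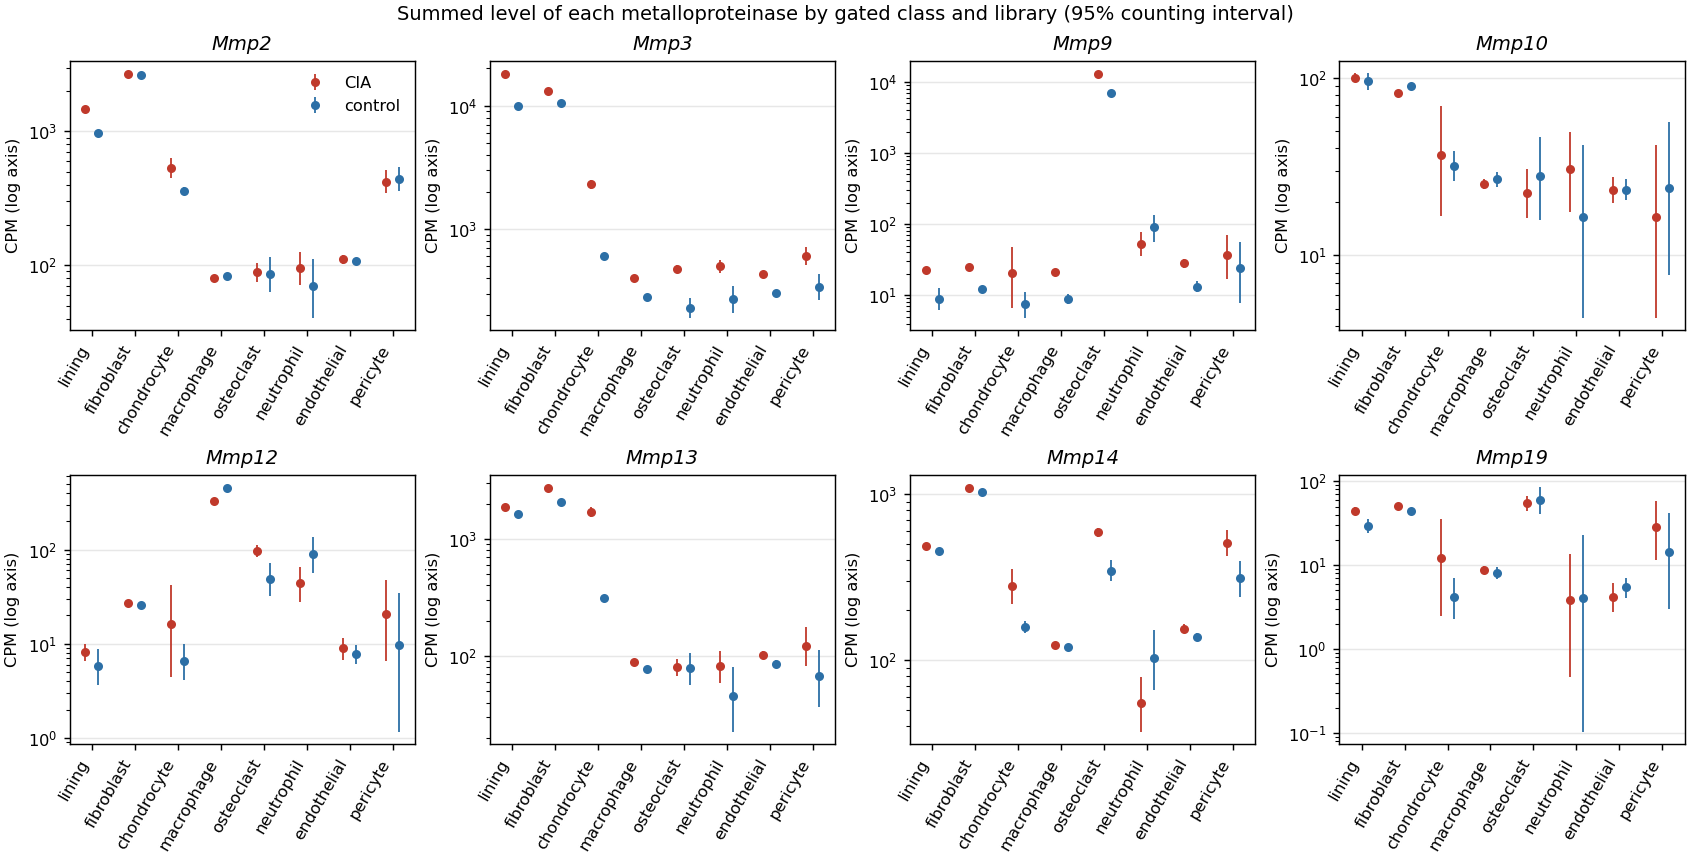
Summed level of each of the 8 genes (CPM, log axis) in 8 gated classes of the CIA (red) and control (blue) libraries, with bars for the exact Poisson 95% interval. Mmp9 stands out in osteoclast-gated cells and Mmp12 in macrophage-gated cells, while Mmp2, Mmp3 and Mmp13 are high in lining-gated and fibroblast-gated cells.

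None of the 8 genes differed between the libraries by the size rule in its own source. The rule asks for a ratio of at least 2-fold with an interval wholly beyond 1.5-fold, in measured genes, which are those with 100 or more UMIs in the CIA and control sums combined. The largest ratios in a source were those of Mmp9 (1.89) and Mmp3 (1.82), and the lowest was that of Mmp12 (0.733). Mmp3 did pass with stricter marker limits (3.79) and with clusters in place of gates (4.43). Mmp9 passed without the highest cell of each library (2.13), with a mitochondrial limit of 10% (2.19) and with clusters (2.26). The lining clusters pooled cluster 1 (30 CIA and 215 control cells) and cluster 8 (478 CIA and 42 control cells), so 4.43 compares different mixes. In cluster 8 Mmp3 had 17436 CPM (CIA) and 12686 CPM (control), and in cluster 1 2101.5 CPM (CIA) and 839 CPM (control). For Mmp9, cluster 9 held 91 CIA and 31 control cells, of which 71 and 18 were osteoclast-gated. Those gated cells had 13326 CPM (CIA) and 7389 CPM (control).

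Mmp3, stromelysin-1, which cuts proteoglycans and activates other latent metalloproteinases, was the most abundant of the 8. In lining-gated cells it reached 18180 CPM in the CIA library (200731 UMIs) and 10004 CPM in the control library (38103 UMIs), a ratio of 1.82 (1.80 to 1.84). The median cell stood further apart than the sum, at 14892 CPM in CIA and 2203 CPM in control cells. At least 10000 CPM of Mmp3 was found in 480 of 689 CIA cells (69.7%, exact binomial 66.1 to 73.1%) and in 77 of 249 control cells (30.9%, 25.2 to 37.1%). In fibroblast-gated cells the sums were closer, 13166 CPM (CIA) and 10398 CPM (control), with a ratio of 1.27 (1.26 to 1.27). Beyond these gates and the chondrocyte gate, every compared class had between 401 and 605 CPM in the CIA and between 230 and 341 CPM in the control library. Mmp3 was thus present at a low level throughout, and 96.4% of CIA and 94.5% of control endothelial-gated cells had a UMI of it, at median depths of 8758 and 11355 UMIs. Values at that level are read as background. Osteoclast-gated cells lay in this range, and the ratio of 2.07 (1.71 to 2.52) there, the only one of 7 measured members past the rule, is a ratio of background levels (0.473% of measured genes were higher in CIA in that gate).

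Within the lining gate, the low Mmp3 of the control library lay in cells with Clic5, a chloride channel family gene that is a marker of the gate and led it. This split, and the one at 1500 CPM, were chosen after the values had been seen. Of the lining-gated cells, 35 CIA cells (5.08%) and 76 control cells (30.5%) had at least 500 CPM of Clic5, a level passed by 0.190% of CIA and 0.156% of control endothelial-gated cells. In these cells Mmp3 was at 10184 CPM in the CIA library and 505 CPM in the control library, a ratio of 20.2 (18.4 to 22.2), with medians of 8805 and 306 CPM. The control median equalled the level in control endothelial-gated cells (306 CPM), which is read as background. The size of this ratio is thus set by a denominator near background. The libraries filled this range of Clic5 differently. From 500 to under 1500 CPM lay 25 CIA and 26 control cells, with 12487 CPM (CIA) and 623 CPM (control) of Mmp3 and medians of 13459 and 314 CPM. At 1500 CPM or more lay 10 CIA and 50 control cells, with 2593 CPM (CIA) and 454 CPM (control) and medians of 899 and 300.4 CPM. The ratio was thus 20.05 (17.3 to 23.4) in the lower and 5.72 (4.85 to 6.73) in the upper range. The control medians were near background in both ranges. In cells with some Clic5 under 500 CPM (147 CIA and 55 control cells), Mmp3 had 16188 CPM (CIA) and 5727 CPM (control), a ratio of 2.83 (2.74 to 2.91). In cells with no Clic5 UMI (507 CIA and 118 control cells) the levels were 19289 CPM (CIA) and 16089 CPM (control), and the ratio was 1.20 (1.18 to 1.21). In the cells without Clic5 the libraries stood as close as in the fibroblast gate.

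**Figure D2:**
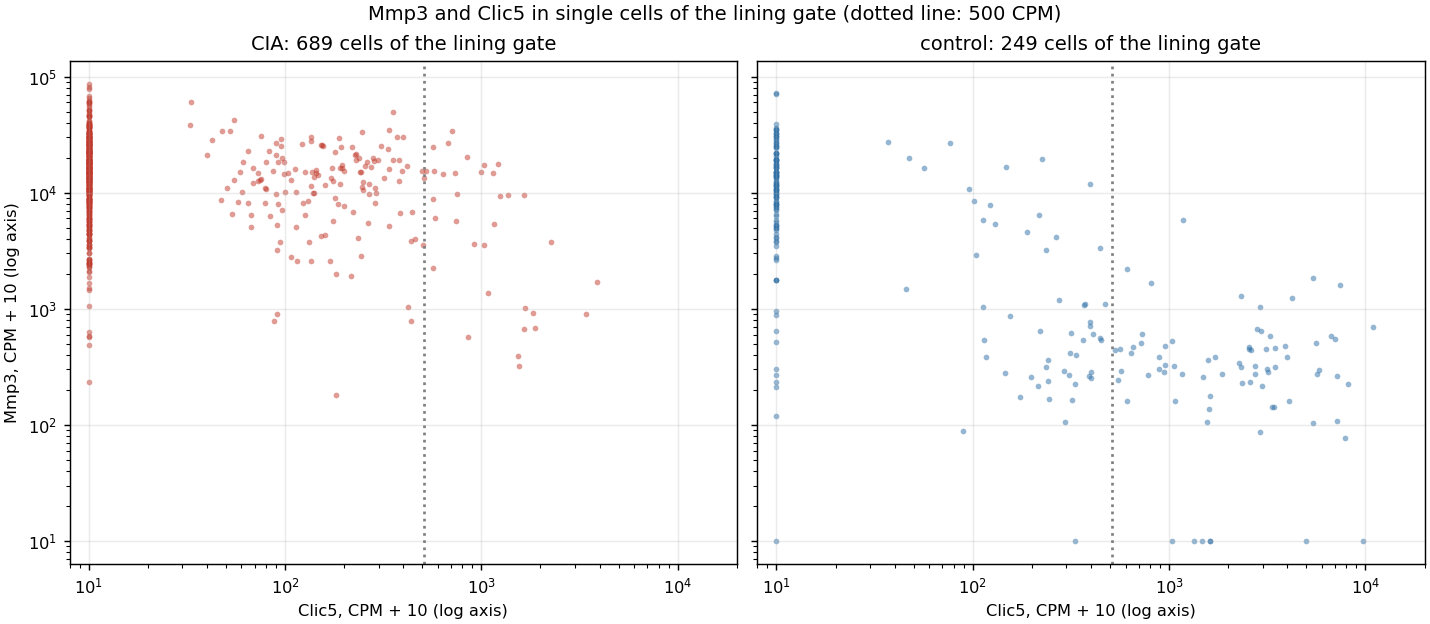
Each point is 1 lining-gated cell, with Clic5 on the horizontal and Mmp3 on the vertical log axis (CPM plus 10), CIA on the left (689 cells) and control on the right (249 cells), and a dotted line at 500 CPM of Clic5. Control cells right of the line sit mostly near 300 CPM of Mmp3 (median 306), whereas CIA cells there have a median of 8805 CPM.

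In the cells with at least 500 CPM of Clic5, Mmp2 and Mmp13 were also higher in CIA. Of 4 measured members, 3 were higher in CIA by the size rule, against 4.09% of all measured genes (4.18% were lower): beside Mmp3 these were Mmp2, with 1184 CPM (CIA) and 313 CPM (control) and a ratio of 3.79 (3.29 to 4.37), and Mmp13, with 220 CPM (CIA) and 59.0 CPM (control) and a ratio of 3.73 (2.68 to 5.25). Endothelial-gated cells had 101 CPM (CIA) and 85.5 CPM (control) of Mmp13. Its control level in the cells with Clic5 was below that, so its ratio also rests on a background level. Mmp14 had 412 CPM (CIA) and 244 CPM (control) in the cells with Clic5, a ratio of 1.69 (1.39 to 2.04) that missed the rule. With some Clic5 under 500 CPM, Mmp3 alone of 6 measured members was higher (2.82% of measured genes were), and with no Clic5, 0 of 7 measured members passed (1.31% of genes were higher and 1.05% lower). There Mmp13 had 2286 CPM (CIA) and 2742 CPM (control), a ratio of 0.834 (0.809 to 0.859), and Mmp14 503 CPM (CIA) and 571 CPM (control), a ratio of 0.881 (0.826 to 0.942), so that both lay below 1 where Mmp3 lay above it.

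Clustering of all cells, with metalloproteinases left out of the genes used, placed most of the Clic5 cells of the CIA and control libraries in different clusters. Of the cells with at least 500 CPM, 6 of 35 CIA cells and 74 of 76 control cells lay in cluster 1, and 29 CIA cells and 1 control cell in cluster 8, so the ratios in these cells compare different clusters. Cluster 1, led by Clic5 and F13a1, took 10 CIA cells (1.45%) and 121 control cells (48.6%) of the lining gate. Cluster 8, led by Slurp1 and Col22a1, took 368 CIA cells (53.4%) and 28 control cells (11.2%). In lining-gated cells of cluster 1 Mmp3 had 804 CPM (CIA) and 544 CPM (control), and in those of cluster 8 it had 17245 CPM (CIA) and 11379 CPM (control). In the same lining-gated cells of cluster 1 Mmp2 had 288 CPM (CIA, 10 cells) and 439 CPM (control, 121 cells). Mmp14 had 192 CPM (CIA) and 303 CPM (control) there. Over all cells of cluster 1, gated or not, Mmp2 had 737 CPM (CIA, 30 cells) and 647 CPM (control, 215 cells). Mmp14 had 333 CPM (CIA) and 339 CPM (control) over them. With so few CIA cells, the order of the libraries within cluster 1 is not settled for these genes. In lining-gated cells of cluster 0 Mmp3 had 23453 CPM (CIA) and 19958 CPM (control), in those of cluster 2 17630 CPM (CIA) and 17819 CPM (control), and in those of cluster 4, with the opposite order, 10690 CPM (CIA, 50 cells) and 14504 CPM (control, 32 cells). Different kinds of cells filled the gate in the libraries, so a different mix and a difference within 1 kind cannot be told apart in its sum.

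Across fibroblast-gated and lining-gated cells binned by Prg4, itself a marker of the lining gate, Mmp3 in the CIA library and Mmp14 in both libraries were graded, and Mmp2 and Mmp13 were not. From cells under 1000 CPM of Prg4 to those with at least 30000 CPM, Mmp3 in the CIA library had 6976, 10724, 15160, 18492 and 18521 CPM in 5 bins. In the control library it had 6238, 11209, 14605, 13798 and 8151 CPM in the same bins. Up to 10000 CPM of Prg4 the libraries were close, and they parted above it, where 10.8% and then 25.3% of CIA cells and 16.7% and then 58.8% of control cells had a Clic5 UMI. Mmp14 went the other way in both libraries, with 1308 CPM (CIA) and 1103 CPM (control) in the lowest bin and 477 CPM (CIA) and 387 CPM (control) in the highest. Mmp2 peaked in the second bin, at 3104 CPM (CIA) and 2939 CPM (control), and had 1475 CPM (CIA) and 963 CPM (control) in the highest. Mmp13 had 3059, 2170.5, 2559, 2649 and 2254 CPM over the bins in the CIA library, and 1652, 1893, 2520, 2517 and 1478 CPM in the control library.

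**Figure D3:**
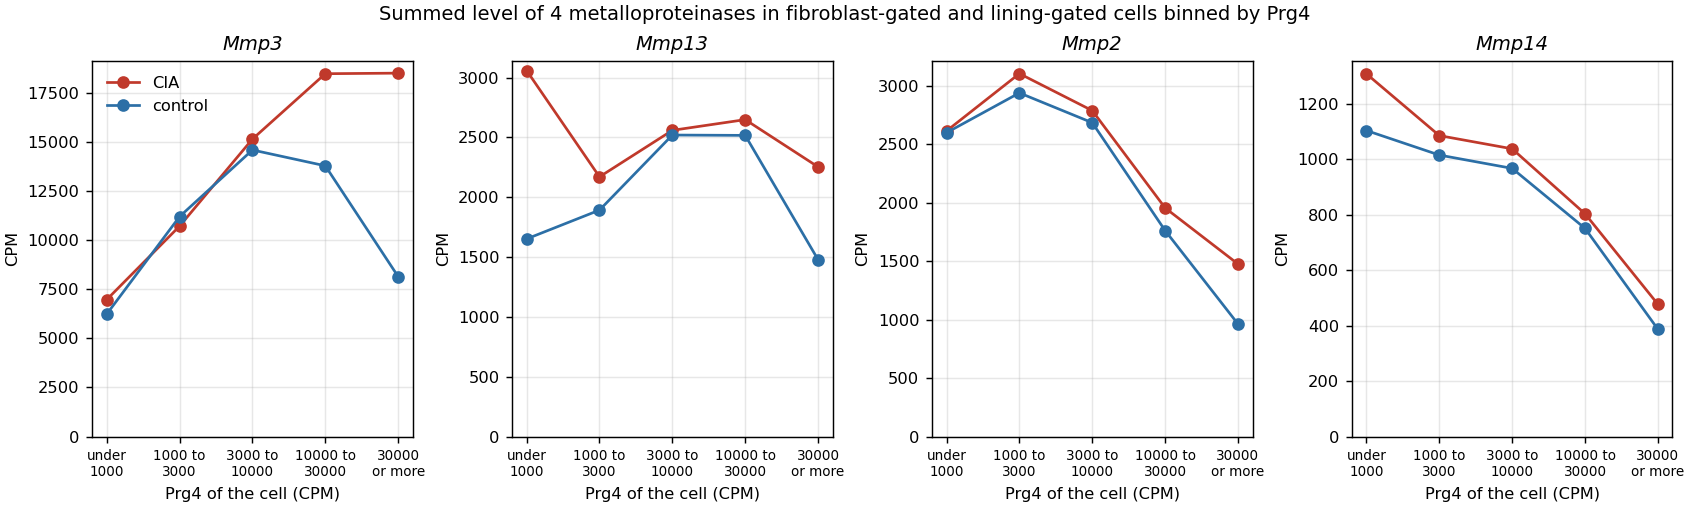
Summed level (CPM) of Mmp3, Mmp13, Mmp2 and Mmp14 in fibroblast-gated and lining-gated cells, grouped into 5 bins by the Prg4 level of the cell, in the CIA (red) and control (blue) libraries. Mmp3 is higher from bin to bin up to 18521 CPM in CIA and drops to 8151 CPM in the highest control bin, while Mmp14 is lower with each bin in both.

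Mmp13, collagenase-3, the main enzyme that cuts type II collagen, had its highest level in fibroblast-gated cells in both libraries, among the compared gates. Chondrocyte-gated cells had 1712 CPM (CIA, 25 cells) and 313 CPM (control, 328 cells). By these sums they stood far lower only in the control library, but much of the CIA sum came from 1 cell. At least 1000 CPM was found in 3 of 25 CIA chondrocyte-gated cells (12%) and in 1334 of 3282 CIA fibroblast-gated cells (40.6%). Fibroblast-gated cells had 2736 CPM in the CIA library (108128 UMIs) and 2056 CPM in the control library (66982 UMIs), a ratio of 1.33 (1.32 to 1.34). They held 77.1% (CIA) and 81.6% (control) of all Mmp13 UMIs. Mmp13 was concentrated in some cells: the 10% of fibroblast-gated cells with the most held 57.3% (CIA) and 63.5% (control) of its UMIs there, and the medians were 475 and 265 CPM. For Mmp2 the 10% of cells with the most held only 26.5% (CIA) and 26.9% (control). At least 10000 CPM was found in 289 of 3282 CIA cells (8.81%, 7.86 to 9.83%) and 134 of 2291 control cells (5.85%, 4.92 to 6.89%). Of the 4 clusters with the most fibroblast-gated cells the highest summed level lay in cluster 3, led by Mfap2, Egfl6 and Mme among others, whose fibroblast-gated cells had 4731 CPM (CIA) and 2638 CPM (control). Of these 4 clusters it was also the lowest in Mmp3, at 8299 CPM (CIA) and 6674 CPM (control). In fibroblast-gated cells of cluster 4, led by Anxa8 and Acan among others, the order of the libraries was the opposite, with 1801 CPM (CIA) and 2446 CPM (control) of Mmp13. In lining-gated cells Mmp13 had 1877 CPM (CIA) and 1615 CPM (control), a ratio of 1.16 (1.13 to 1.196), but with the stricter marker limits it was 2.11 (1.99 to 2.24).

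Mmp2 and its activator Mmp14 differed little. Mmp2, gelatinase A, had 2701 CPM in CIA (106745 UMIs) and 2661 CPM in control fibroblast-gated cells (86682 UMIs), a ratio of 1.02 (1.01 to 1.02), and 99.8% of cells of either library had a UMI. Mmp14, the membrane-bound enzyme that activates latent Mmp2 at the cell surface, had 1087 CPM (CIA) and 1024 CPM (control) there, a ratio of 1.06 (1.05 to 1.08). Of the same 4 clusters both genes were lowest in cluster 4, which had 817 CPM (CIA) and 789 CPM (control) of Mmp2 and 555 CPM (CIA) and 529 CPM (control) of Mmp14. Dividing cells had less Mmp2 in both libraries: fibroblast-gated cells with UMIs of at least 3 cell cycle markers had 1098 CPM (CIA) and 1495 CPM (control), against 2989 CPM (CIA) and 2882 CPM (control) in the others. Unlike Mmp2, Mmp14 was also found in osteoclast-gated cells, at 587 CPM (CIA) and 346 CPM (control), a ratio of 1.70 (1.45 to 2.00), 3.81-fold (CIA) and 2.52-fold (control) its endothelial level. Pericyte-gated cells, with 124 CIA and 65 control UMIs, had 507 CPM (CIA) and 312 CPM (control) of it, a ratio of 1.62 (1.19 to 2.23).

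Mmp10 and Mmp19 were the least abundant of the 8. Mmp10, stromelysin-2, an enzyme close in sequence to Mmp3, had 99.7 CPM (CIA) and 95.3 CPM (control) in lining-gated cells, a ratio of 1.05 (0.928 to 1.18). In fibroblast-gated cells it had 81.7 CPM (CIA) and 89.9 CPM (control), a ratio of 0.909 (0.864 to 0.956). The intervals of these levels in the lining and fibroblast gates overlapped in the control library (85.8 to 106 and 86.7 to 93.2 CPM) and not in the CIA library (93.9 to 106 and 78.9 to 84.6 CPM). In lining-gated cells without Clic5 Mmp10 had 105 CPM (CIA) and 134 CPM (control), a ratio of 0.788 (0.687 to 0.906). With stricter marker limits the gate's ratio was 1.58 (1.27 to 1.99) and with clusters 1.62 (1.37 to 1.93). The value with clusters pools cluster 1, with 39.5 CPM (CIA) and 30.6 CPM (control), and cluster 8. In cluster 8 the order was the opposite, with 91.2 CPM (CIA) and 128 CPM (control) of Mmp10. Mmp19, an enzyme that cuts basement membrane proteins, had similar levels in 3 gates. Osteoclast-gated cells had 54.4 CPM (CIA, 99 UMIs) and 59.9 CPM (control, 32 UMIs), fibroblast-gated cells 50.4 CPM (CIA) and 43.8 CPM (control), and lining-gated cells 44.7 CPM (CIA) and 29.7 CPM (control). The interval of the osteoclast level, 44.2 to 66.2 CPM in CIA and 40.9 to 84.5 CPM in control cells, spanned the fibroblast level in both libraries, so its place as first source is not separated from the fibroblast gate. The lining ratio of Mmp19 was 1.505 (1.22 to 1.86), and 1.11 (0.875 to 1.42) in cells without Clic5, but 2.503 (1.65 to 3.93) with stricter marker limits.

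Mmp9, gelatinase B, a secreted enzyme known from osteoclasts and neutrophils, was all but limited to osteoclast-gated cells. These were 0.880% of CIA and 0.374% of control cells, and held 88.9% (CIA) and 80.2% (control) of all Mmp9 UMIs. They had 13064 CPM in the CIA library (23795 UMIs in 74 cells) and 6903 CPM in the control library (3690 UMIs in 20 cells), a ratio of 1.89 (1.83 to 1.96). The median cell had 12090 CPM (CIA) and 5070 CPM (control), and at least 1000 CPM was found in 66 of 74 CIA cells (89.2%, 79.8 to 95.2%) and 12 of 20 control cells (60%, 36.1 to 80.9%). Intervals of UMIs do not cover the spread over so few cells: 1 control cell gave 19.9% of the control UMIs and 1 CIA cell 6.73% of the CIA UMIs. Without that cell in each library the ratio was 2.13 (2.05 to 2.21), so the call by the size rule turned on a single cell per library. The summed level of the osteoclast markers was 13551 CPM (CIA) and 11268 CPM (control), and that of the macrophage markers 9647 CPM (CIA) and 7969 CPM (control), with 2 of 12 of them at 0 in the control cells. The part of this difference in marker level was not tested.

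In most other gates Mmp9 lay at background. The lining, fibroblast, macrophage, endothelial and chondrocyte gates had 20.3 to 28.2 CPM in the CIA library and 7.46 to 13.2 CPM in the control library. The ratio passed the size rule in 4 of these gates, with values of 2.51 (1.75 to 3.70) in lining-gated, 2.05 (1.82 to 2.31) in fibroblast-gated, 2.44 (2.05 to 2.93) in macrophage-gated and 2.14 (1.69 to 2.71) in endothelial-gated cells. It was the only one of the members past the rule in each of these gates, of 8 measured in the lining, fibroblast and macrophage gates and 7 in the endothelial gate. In them 1.38%, 0.325%, 0.355% and 0.258% of all measured genes were higher in CIA. A like ratio in cells of unlike type, at 0.668 to 0.917 times the endothelial level, is read as background. Neutrophil-gated cells, with 28 CIA and 22 control UMIs of Mmp9, had 53.3 CPM (CIA) and 90.1 CPM (control), too few UMIs for a ratio under the rule. Of these cells 0 of 61 CIA and 2 of 23 control cells (8.70%, 1.07 to 28.0%) had at least 1000 CPM, a level that no endothelial-gated cell of either library reached. Of the members Mmp3 alone was measured in neutrophil-gated cells, and it passed in neither direction (2.24% of measured genes were higher and 6.58% lower there).

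Mmp12, the macrophage metalloelastase, was lower in the CIA library within its source. Macrophage-gated cells had 327 CPM in the CIA library (11530 UMIs) and 446 CPM in the control library (7499 UMIs), a ratio of 0.733 (0.712 to 0.755). They held 86.9% (CIA) and 84.8% (control) of its UMIs. Few macrophage-gated cells carried it: 24.8% of CIA and 32.8% of control cells had a UMI, or 18.4% and 22.4% with each cell thinned to 4000 UMIs, against 3.68% and 3.04% of endothelial-gated cells. The 10% of cells with the most held 90.1% (CIA) and 88.0% (control) of the UMIs, and at least 1000 CPM was found in 243 of 3155 CIA cells (7.70%, 6.80 to 8.69%) and 106 of 1163 control cells (9.11%, 7.52 to 10.9%). Osteoclast-gated cells had 96.1 CPM (CIA, 32.6% of it from 1 cell) and 48.6 CPM (control, 26 UMIs).

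The difference in Mmp12 was larger in macrophage-gated cells with complement genes, which are markers of the gate. In cells with UMIs of at least 2 of C1qa, C1qb and C1qc, which bind immune complexes as parts of C1q, Mmp12 had 245 CPM (CIA, 1083 cells) and 494 CPM (control, 426 cells), a ratio of 0.495 (0.470 to 0.520). It was the only one of the 8 lower by the size rule there (3.26% of measured genes were), and Mmp9, at its background level, the only one higher (0.503% were). In the other macrophage-gated cells Mmp12 had 369 CPM (CIA) and 416 CPM (control), a ratio of 0.887 (0.855 to 0.921), and none of the 8 was lower by the rule (3.85% of genes were). Dividing macrophage-gated cells had more of it and no such gap, with 624 CPM (CIA, 417 cells) and 646 CPM (control, 167 cells), against 260 CPM (CIA) and 393 CPM (control) in the others. Both splits were chosen after the values had been seen.

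Different clusters filled the macrophage gate. Cluster 5, led by Spp1 and the C1q genes, took 77.8% of CIA and 20.2% of control cells of the gate, and cluster 7, led by Gdf15 and Rasgef1b and with Ccl4 among its leading genes, took 5.58% of CIA and 52.0% of control cells. Mmp12 was lower in the CIA library in both, with 314 CPM (CIA) and 640 CPM (control) in cluster 5 and 155 CPM (CIA) and 490 CPM (control) in cluster 7. In cluster 11, led by cell cycle genes, the order was the opposite, with 617 CPM (CIA) and 415 CPM (control). Cells of cluster 6, led by Fcnb, had little, at 23.0 CPM (CIA) and 19.0 CPM (control).

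**Figure D4:**
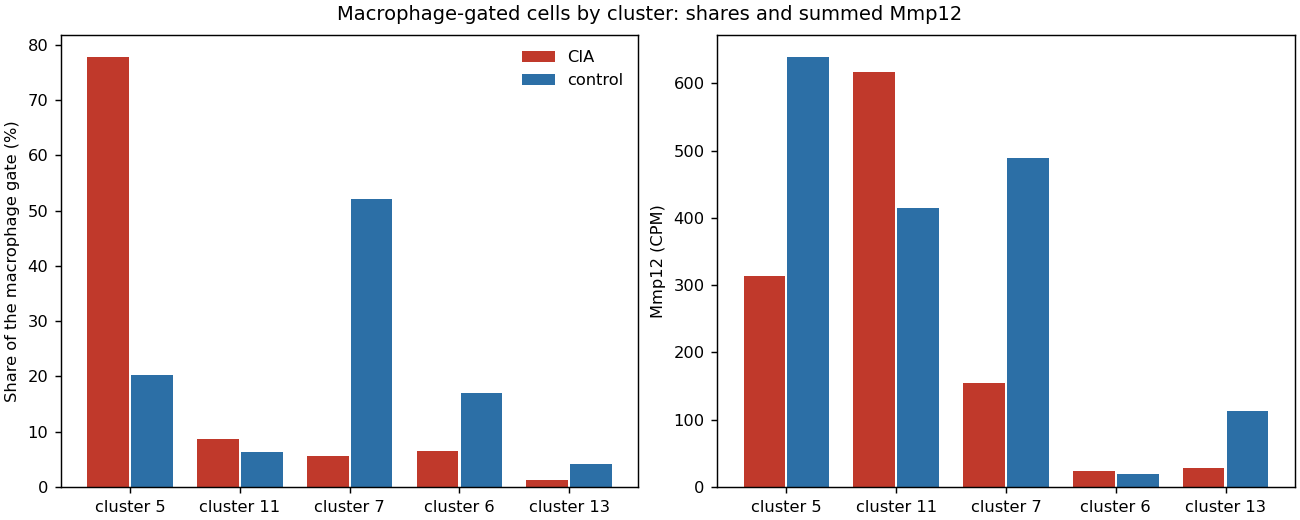
Macrophage-gated cells by cluster in the CIA (red) and control (blue) libraries, as bars of the share of the gate (left, percent) and of the summed level of Mmp12 (right, CPM). Cluster 5 holds 77.8% of CIA cells of the gate, and its Mmp12 level is 314 CPM in CIA and 640 CPM in control cells.

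In chondrocyte-gated cells, the cells the series is named for, 2 of 5 measured members were higher in CIA by the size rule (3.27% of all measured genes were). Mmp3 had 2302 CPM in CIA (566 UMIs in 25 cells) and 609 CPM in control cells (2039 UMIs in 328 cells), a ratio of 3.78 (3.44 to 4.15). Mmp13 had 1712 CPM (CIA, 421 UMIs) and 313 CPM (control, 1048 UMIs), a ratio of 5.47 (4.88 to 6.13). These sums rest on few cells: 51.4% of the CIA UMIs of Mmp3 and 47.7% of those of Mmp13 came from 1 cell, and 36.5% of the control UMIs of Mmp13 from 1 cell. Without the highest cell of each library the ratios were 2.11 (1.85 to 2.40) for Mmp3 and 4.64 (3.97 to 5.41) for Mmp13. For Mmp3 the medians were closer than the sums, at 490 CPM (CIA) and 319 CPM (control). They lay near its endothelial levels of 432 CPM (CIA) and 306 CPM (control), which are read as background. For Mmp13 the medians were further apart than the sums, at 141 CPM (CIA) and 14.0 CPM (control). Its endothelial levels, also read as background, were 101 CPM (CIA) and 85.5 CPM (control). The control median lay below that level, so the gap between the medians rests on a background value. Fibroblast markers moved in the same direction in this gate, at a summed 14285 CPM (CIA) and 7298 CPM (control), with 3 of 11 markers at 0 in the CIA and 0 in the control cells, while lining markers were at 2058 CPM (CIA) and 9350 CPM (control). The part of these in the result was not tested. The median of all measured genes in this gate moved by -0.33 on the log2 scale when TMM factors replaced the totals. Under them 34 genes were higher and 277 lower in CIA, in place of 114 and 163.

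Over all cells of each library, Mmp9 was the only one of the 8 past the size rule, and it was higher in CIA (0.811% of measured genes were). It had 263 CPM (CIA) and 61.2 CPM (control), a ratio of 4.30 (4.16 to 4.43). With the CIA levels of each gate weighted by the control library's shares of UMIs per gate, the ratio was 2.05. With control levels and CIA shares it was 2.20, so the share of osteoclast-gated cells and the level within them entered about equally. Mmp12 turned round: its whole-library ratio was 1.11 (1.08 to 1.14), and with control shares it was 0.786, since macrophage-gated cells made up 37.5% of CIA and 21.7% of control cells. For the other 6 genes the whole-library ratios lay between 0.944 (Mmp10) and 1.38 (Mmp3), and between 0.929 (Mmp10) and 1.36 (Mmp13) with control shares.

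**Figure D5:**
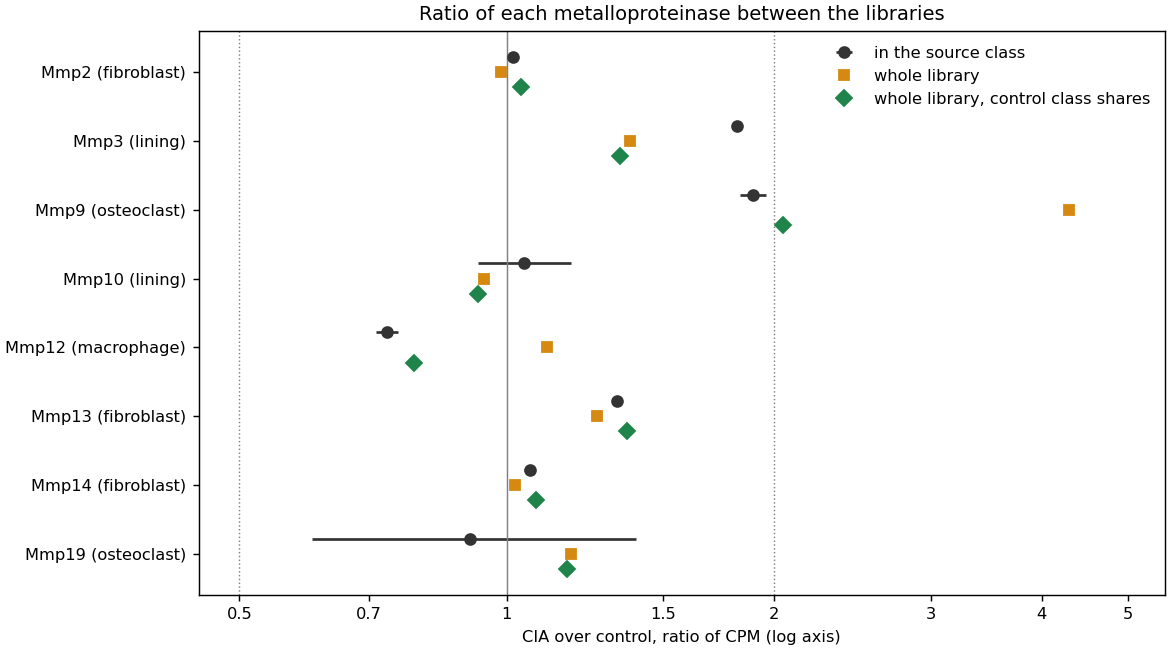
CIA over control ratio of each gene (log axis) in its source class (circles, with the exact 95% counting interval), over the whole library (squares) and over the whole library with control class shares (diamonds); dotted lines mark 2-fold. Mmp9 falls to 2.05 and Mmp12 to 0.786 once class shares are held at those of the control library, and the other genes move little.

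Within cells of 1 gate, some pairs of enzymes went together. Per-cell correlations of log2(CPM + 1) are given as descriptions, with cells of a library sharing its depth. Mmp2 and its activator Mmp14 had r = 0.43 in CIA (3282 cells) and 0.43 in control (2291 cells) fibroblast-gated cells, and Mmp3 and Mmp10 had r = 0.35 (CIA) and 0.38 (control). Mmp2 and Mmp3, both abundant there, had r = -0.01 in CIA fibroblast-gated cells. In lining-gated cells Mmp2 and Mmp3 had r = 0.29 (CIA, 689 cells) and 0.53 (control, 249 cells), and Mmp3 and Mmp13 had r = 0.30 (CIA) and 0.51 (control). The part of Clic5 in these values was not tested. Across the 16 sums of 8 gates in both libraries, Mmp3 had r = 0.95 with Mmp13, 0.94 with Mmp10 and -0.40 with Mmp12, which is also on chromosome 8.

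The genes whose levels over these 16 sums were most like each member were, for Mmp2, Col3a1, Lum and C1s (r = 0.97 to 0.99); Col3a1 and Lum are themselves gate markers. For Mmp3 they were Pdpn, Clec2dl1 and Sectm1b (0.97 to 0.98), for Mmp13 Cthrc1, Sectm1b and Clec2dl1 (0.96 to 0.97), and for Mmp10 Egfr, Pdpn and En1 (0.94 to 0.96). For Mmp9 they were Lpcat1, Oxr1 and Lad1 (0.94 to 0.95), and for Mmp12 Ctss, Ccl6 and Npc2 (0.92 to 0.93). For Mmp14 they were Ndrg4, Armcx3 and Pigt (0.90 to 0.91), and for Mmp19 Cd82, Calr and Pigt (0.90 to 0.93).

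Genes around the enzymes were counted from 5 lists. Of 5 inhibitors found of 6 listed, 4 were measured in lining-gated cells, and 2 of them were higher in CIA and 0 lower, with a median log2 ratio of 0.71 against -0.04 over all measured genes, of which 1.38% were higher and 2.62% lower. Timp1, an inhibitor of most secreted metalloproteinases, had 6374 CPM (CIA) and 2583 CPM (control), a ratio of 2.47 (2.42 to 2.52). Timp3, which binds to the matrix, had 401 CPM (CIA) and 151 CPM (control), a ratio of 2.66 (2.44 to 2.91). Both ratios were larger than that of Mmp3 in the same sums. Timp3 was among the leading genes of cluster 8, which took 53.4% of CIA and 11.2% of control lining-gated cells. The part of this mix in both ratios was not tested. In fibroblast-gated cells 0 of 4 measured inhibitors passed in either direction (median 0.25 against 0.05), with Timp1 at 3080 CPM (CIA) and 2318 CPM (control). None of the 4 passed in macrophage-gated cells (median 0.53 against 0.08). Timp1 was higher in osteoclast-gated cells, at 93.3 CPM (CIA) and 37.4 CPM (control, 20 UMIs), and in chondrocyte-gated cells, at 2529 CPM (CIA) and 769 CPM (control). In these 2 gates 1 of 2 and 1 of 4 measured inhibitors were higher, against 0.473% and 3.27% of all measured genes. The osteoclast levels lay below the endothelial levels of Timp1, 290 CPM (CIA) and 257 CPM (control). That ratio is therefore read as 1 of background levels.

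Of inducers and transcription factors, none was higher in CIA in any of these 5 gates. Lower were 3 of 15 measured in lining-gated, 2 of 18 in fibroblast-gated, 5 of 16 in macrophage-gated, 1 of 6 in osteoclast-gated and 5 of 12 in chondrocyte-gated cells. In the same gates 2.62%, 1.28%, 3.87%, 1.38% and 4.68% of all measured genes were lower. Jun, a subunit of AP-1, was among them in all 5, for example with 253 CPM (CIA) and 927 CPM (control) in lining-gated cells, a ratio of 0.273 (0.260 to 0.287), and with 325 CPM (CIA) and 829 CPM (control) in fibroblast-gated cells, 0.392 (0.384 to 0.400). Fos, its partner, had 242 CPM (CIA) and 876 CPM (control) in lining-gated cells, a ratio of 0.276 (0.262 to 0.290). Il1b, the cytokine interleukin-1 beta, had 91.6 CPM (CIA) and 227 CPM (control) in macrophage-gated cells, a ratio of 0.404 (0.385 to 0.424). It was among the leading genes of cluster 6, which took 6.43% of CIA and 16.9% of control macrophage-gated cells. The part of this mix in the ratio was not tested. The lower values of Il1b in lining-gated and fibroblast-gated cells were 14.9 to 16.2 CPM (CIA) and 35.4 to 35.5 CPM (control). Levels this alike, far below those of macrophage-gated cells, were not told apart from background. Junb had 581 CPM (CIA) and 1389 CPM (control) in macrophage-gated cells, a ratio of 0.418 (0.410 to 0.426).

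Activators of latent forms had few members past the rule. Plau, the urokinase that makes plasmin, had 20.2 CPM (CIA) and 62.7 CPM (control) in macrophage-gated cells, a ratio of 0.322 (0.292 to 0.354), the only one of 5 measured there that passed (3.87% of all measured genes were lower). Ctsg, a granule protease, was the only one of 6 in fibroblast-gated cells, at 0.709 CPM (CIA) and 2.86 CPM (control), where 1.28% of all measured genes were lower, and 0 of 4 passed in lining-gated cells. The granule-gene progenitor markers, Ctsg among them, summed to 3.26 CPM (CIA) and 10.4 CPM (control) in fibroblast-gated cells. In endothelial-gated cells they summed to 3.57 CPM (CIA) and 11.4 CPM (control), so this Ctsg level is read as background.

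Among substrates, Spp1, osteopontin, was higher in CIA in all 5 gates. In macrophage-gated cells it had 8437 CPM (CIA) and 3415 CPM (control), a ratio of 2.47 (2.45 to 2.49). In lining-gated cells it had 172 CPM (CIA) and 52.2 CPM (control), a ratio of 3.28 (2.84 to 3.82). These lining levels, far below those of macrophage-gated cells, were not told apart from background. Fn1, fibronectin, was higher in macrophage-gated cells, with 4768 CPM (CIA) and 1889 CPM (control), a ratio of 2.52 (2.49 to 2.55). Col2a1, the chain of type II collagen, had 5.62, 14.0 and 6.02 CPM in CIA and 128, 142 and 126 CPM in control lining-gated, fibroblast-gated and macrophage-gated cells. A like level in macrophages, which should lack it, is read as background. By direction, 1 higher and 2 lower of 11 substrates passed in lining-gated, 1 and 1 in fibroblast-gated, 2 and 3 in macrophage-gated, and 4 and 1 in chondrocyte-gated cells, and 1 and 0 of 7 in osteoclast-gated cells. Of all measured genes 1.38% were higher and 2.62% lower in the lining gate, 0.325% and 1.28% in the fibroblast gate, 0.355% and 3.87% in the macrophage gate, 3.27% and 4.68% in the chondrocyte gate, and 0.473% and 1.38% in the osteoclast gate.

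The other metalloproteinases of the family were scarce. Of 14 listed, 10 were found, and 3, 4 and 2 were measured in lining-gated, fibroblast-gated and macrophage-gated cells. Mmp23 reached 118 CPM (CIA) and 119 CPM (control) in fibroblast-gated cells, a ratio of 0.987 (0.946 to 1.03). Mmp16, a membrane-bound enzyme, had 6.16 CPM (CIA) and 14.7 CPM (control) in lining-gated cells, a ratio of 0.419 (0.290 to 0.608). Mmp7, matrilysin, had 2.81 CPM (CIA) and 6.61 CPM (control) in macrophage-gated cells, a ratio of 0.425 (0.321 to 0.563). Mmp8, the neutrophil collagenase, had 118 CPM (CIA, 62 UMIs) and 557 CPM (control, 136 UMIs) in neutrophil-gated cells. There the summed level of granule-gene progenitor markers was 1594 CPM (CIA) and 13936 CPM (control), and its part in the Mmp8 difference was not tested. Over all cells 1 of these genes, Mmp8, was lower in CIA (4.27% of measured genes were), at 2.15 CPM (CIA) and 4.52 CPM (control), a ratio of 0.475 (0.399 to 0.565).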

How the data were processed

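Each library came as 1 matrix of UMI counts that the authors deposited without normalization, with Ensembl identifiers and symbols. Per the labels' protocols, cartilage was dissociated with TrypLE before Chromium 3' library construction; the barcodes in the files are longer than those of the kit version the labels name, so the chemistry was not settled. The build was mRatBN 7.2 per the submitters' processing notes. The aligner, the counting tool, the use of strand and the handling of reads shared by similar genes, which bears on Mmp3 and Mmp10, were not stated in the sources.

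The matrices held 8622 barcodes and 105752977 UMIs (CIA), and 5456 barcodes and 76927821 UMIs (control). Kept were cells with 200 or more genes and mitochondrial UMIs of no more than 20% (47 CIA and 45 control cells fell out), and Scrublet marked 166 CIA (1.94%) and 62 control (1.15%) cells as doublets, which were removed. A cell entered a gate when at least 3 markers were detected and their summed level passed a limit set per class after the distributions had been seen, from 1000 CPM (endothelial) to 20000 CPM (lining, fibroblast, macrophage); 1500 CPM for osteoclasts was chosen to leave 20 control cells. Within 1.5-fold of the limit lay 221 CIA and 86 control lining cells inside it and 198 and 82 outside. Cells that passed gates of different compartments (58 CIA, 57 control) and ungated cells (465 CIA, 445 control) were set aside.

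Counts were summed per gate and library and divided by their total over the 18147 shared genes. Ratios carry exact conditional 95% intervals, levels exact Poisson and shares exact binomial intervals. No test was run with 1 library per group. The size rule was tested on simulated counts. Leiden clusters (2000 variable genes without metalloproteinases, 30 components, 15 neighbours, resolution 0.5) were the alternative to gates. Named were the 8 members in every class, members of 5 lists past the size rule, up to 5 per list, and the 3 genes most like each member. The members and lists were chosen with earlier results of these data known. Alternatives were TMM factors, a total without the 50 most abundant genes, per-cell means, omission of the highest cell, a stricter gate, clusters, doublets kept, a mitochondrial limit of 10% and a minimum of 20 UMIs. Tools were Python 3.11.15, numpy 2.4.6, scipy 1.17.1, pandas 2.3.3, scanpy 1.11.5, matplotlib 3.10.9, python-igraph 0.11.9, scikit-learn 1.9.0, anndata 0.12.19, R 4.3.3 and edgeR 4.0.16 (TMM factors only).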

Additional observations from a re-analysis of the deposited data

How the results depend on the processing

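No paired analysis was possible because each group had 1 library. No called ratio changed direction, and 102 values stayed within their main interval. Ratios near 1 did cross it: Mmp2 in fibroblast-gated cells, Mmp10 and Mmp13 in lining-gated cells and Mmp19 in osteoclast-gated cells (from 0.813 to 1.29). The sources of 8 genes held with doublets kept and with per-cell means; with clusters in place of gates 6 held, and with the stricter gate 4 (in both, Mmp3 and Mmp10 peaked in fibroblasts, and the stricter osteoclast gate, with 17 control cells, could not be compared).

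Of the CIA over control ratios that left their main interval, those of each gene in its source follow. Another 23 values, of Mmp3 in fibroblast-gated and Mmp13 and Mmp19 in lining-gated cells, also left it. With TMM factors, Mmp2 was at 1.00, Mmp13 at 1.31 and Mmp14 at 1.05 in fibroblast-gated cells, Mmp3 at 1.94 in lining-gated and Mmp9 at 2.00 in osteoclast-gated cells. Without the 50 most abundant genes, Mmp3 was at 1.89. With per-cell means, Mmp3 was at 2.16, Mmp9 at 2.01, Mmp12 at 0.870, Mmp13 at 1.36 and Mmp14 at 1.08. Without the highest cell, Mmp3 was at 1.92, Mmp9 at 2.13 and Mmp12 at 0.765. With the stricter gate, Mmp3 was at 3.79, Mmp10 at 1.58, Mmp2 at 0.992, Mmp13 at 1.35, Mmp14 at 1.03 and Mmp12 at 0.690. With clusters, Mmp3 was at 4.43, Mmp10 at 1.62, Mmp9 at 2.26, Mmp12 at 0.796, Mmp2 at 1.00 and Mmp14 at 1.03. The cluster values of Mmp3 and Mmp10 pool clusters 1 and 8, which the libraries filled differently. With the mitochondrial limit of 10%, Mmp2 was at 1.02, Mmp3 at 1.78 and Mmp9 at 2.19. The cause of these moves was not tested.

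Settings chosen after seeing the data moved Mmp3 in lining-gated cells to 20.2 (Clic5 of at least 500 CPM; 20.05 under and 5.72 from 1500 CPM), 2.83 (less Clic5), 1.20 (none) and 1.88 (without cycling cells). They moved Mmp10 there to 1.55 (less Clic5) and 0.788 (none), Mmp12 in macrophage-gated cells to 0.495 (C1q), 0.887 (no C1q) and 0.662 (without cycling cells), and Mmp2 in fibroblast-gated cells to 1.04 (without cycling cells).

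Counts of genes past the size rule moved with a minimum of 20 UMIs, to 240 lower in fibroblast-gated, 375 lower in lining-gated, 30 higher and 90 lower in osteoclast-gated and 185 higher in chondrocyte-gated cells (main counts 142, 209, 12, 35 and 114). With TMM factors chondrocyte-gated cells had 34 higher and 277 lower genes, and the share of higher among called genes was 44.9% in lining-gated cells in place of 34.5%.

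Depth limits Mmp10 and Mmp19 in osteoclast-gated cells, and Mmp9 and Mmp12 in neutrophil-gated cells, to under 100 UMIs or intervals that span 1. The 20 control osteoclast and 25 CIA chondrocyte cells limit what their sums can show more than their UMIs do.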

Other observations

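Cells that entered no single gate carried the enzymes too. The cells that passed gates of different compartments had 349 CPM (CIA, 58 cells) and 58.8 CPM (control, 57 cells) of Mmp9, with 59.1% of the CIA UMIs from 1 cell, and ungated cells had 79.3 CPM (CIA, 465 cells) and 14.7 CPM (control, 445 cells). These values are above the levels of the gated classes other than osteoclasts in the CIA library. They were left out of every comparison by gate, and held 1.15% and 1.77% of the CIA Mmp9 UMIs.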
